A study of Mus musculus with 3 samples.

Results

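Among single wells of adult mouse heart, 377 of 3376 carried transcripts of cardiac fibroblast matrix genes at a level set by a rule on their own counts, and these fibroblast-like wells are described here. A well was taken when Dcn, Col1a1, Col3a1 and Lum together reached at least 1000 CPM (here a gene's counts per 1000000 counts of nuclear-encoded mouse genes in that well) and when the 4 macrophage genes Lyz2, C1qa, C1qb and C1qc together stayed under 1000 CPM. The rule took 162 of 1225 wells on day 1, 131 of 1059 on day 2 and 84 of 1092 on day 3. These are shares of 13.2% (exact Clopper-Pearson 95% interval 11.4 to 15.3), 12.4% (10.4 to 14.5) and 7.69% (6.18 to 9.44). All other kept wells of the same library, 2999 in total, are called the remaining wells. A further 7, 4 and 2 wells reached both limits and stayed among the remaining wells.

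The material was labelled as adult cardiomyocytes from the hearts of mice given tamoxifen (spelled tarmoxifen in the labels), with 1 library for each of days 1, 2 and 3 (iCELL8, in which cells are dispensed into nanowells, imaged and lysed singly). The genotype labels read D1_INO80_OE, D2_INO80_OE and, for a single mixed library, both D3_INO80_OE and D3_Ctrl, and no file assigns the day 3 wells to either. The series title instead names Myh6-MCM, a tamoxifen-inducible Cre recombinase driven by a cardiomyocyte myosin promoter and is known to act in cardiomyocytes, together with a floxed Ino80 allele. Day 0 was not analysed here, and no label gives the age of the mice or says how many were pooled. With 1 library per day nothing could be tested against replicates, and differences between days compare libraries. Each interval of a log2 ratio covers counting error only and takes reads as independent. Reads counted without molecular identifiers are not independent molecules, so these intervals can be too narrow even for counting error.

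Cardiac fibroblasts are resident stromal cells that make and remodel the interstitial matrix between cardiomyocytes. Decorin and lumican, encoded by Dcn and Lum, are small proteoglycans that bind collagen fibrils, while Col1a1 and Col3a1 encode chains of the fibrillar collagens types I and III. After injury or overload, fibroblasts are known to enter an activated state with more fibrillar collagen, periostin and tissue inhibitor of metalloproteinases.

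Depth was similar inside and outside the group. Fibroblast-like wells had median totals of 305596, 311926 and 369328 counts on days 1, 2 and 3, against 320715, 352212 and 361111 in the remaining wells. Mitochondrial transcripts took a median of 38.7%, 39.0% and 20.3% of the counts of fibroblast-like wells, against 40.0%, 42.7% and 21.2% of the remaining wells, which is why CPM was set over nuclear-encoded genes. Of the well barcodes, 278 were shared between days 1 and 2, 268 between days 1 and 3 and 247 between days 2 and 3. Among fibroblast-like wells 4, 3 and 1 barcodes were shared in the same order.

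Fibroblast markers that the rule did not use were also higher in these wells. Of 11 such genes (Col1a2, Tcf21, Dpt, Mfap4, Ddr2, Serpinf1, Smoc2, Fbln1, Col6a1, Htra3 and Gpc3), a fibroblast-like well held counts of a median of 5 on every day, and a remaining well held counts of 2, 1 and 1. At least 3 of them were found in 89.5%, 90.1% and 82.1% of fibroblast-like wells, against 24.8%, 26.1% and 19.9% of remaining wells. The summed level of the 11 genes was 846, 978 and 587 CPM in fibroblast-like wells and 124, 85.8 and 87.6 CPM in remaining wells. Near the limit, 82, 45 and 25 wells lay between 500 and 1000 CPM of the 4 rule genes, and 33, 39 and 41 lay between 1000 and 2000 CPM. The median sum of the 11 other markers was 49.1, 37.0 and 172 CPM just outside and 449, 402 and 423 CPM just inside.

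Cardiomyocyte transcripts were nevertheless abundant in these wells. The 10 ventricular cardiomyocyte markers (Myh6, Tnnt2, Tnni3 and others) summed to 79454, 83538 and 83504 CPM in fibroblast-like wells and to 90513, 97493 and 95473 CPM in remaining wells, which is a log2 ratio of -0.19, -0.22 and -0.19. Every fibroblast-like well held over 1000 CPM of them, and the lowest well on any day held 28043 CPM. The 152 genes at least 2-fold higher in fibroblast-like wells in each library took 2.57%, 2.71% and 2.03% of their nuclear counts, against 0.390%, 0.339% and 0.28% in remaining wells. The source of these transcripts was not tested, and most levels in fibroblast-like wells are therefore given beside those of the remaining wells.

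Markers of endothelial cells, pericytes, smooth muscle and macrophages were below the level of the remaining wells on each day, as the plot of marker sums shows. Endothelial markers (10 genes) summed to 355, 500.2 and 310.4 CPM against 646, 615 and 458 CPM, pericyte markers (9 genes) to 381, 555 and 186 CPM against 498, 676 and 326 CPM, and macrophage markers (10 genes, 4 of them limited by the rule) to 152, 127 and 125 CPM against 1048, 1075 and 481 CPM. T-cell markers summed to 26.7, 2.45 and 0 CPM against 17.3, 8.69 and 0.373 CPM, with all 5 at 0 on day 3. On day 1 a single fibroblast-like well held 2584 CPM of them. B-cell markers stayed under 1 CPM, against 3.76, 2.10 and 0.737 CPM, with Cd79a at 0 on every day. Mesothelial markers (7 genes), which mark the outer surface layer of the heart, summed to 33.4, 78.3 and 99.9 CPM against 25.9, 11.2 and 15.4 CPM and exceeded 1000 CPM in 2, 2 and 4 fibroblast-like wells. Red blood cell markers (5 genes, mostly globins) summed to 685, 5994 and 134 CPM against 951, 1493 and 956 CPM, with at least 1000 CPM in 14 wells of day 2. At least 1000 CPM of the 4 endothelial genes Pecam1, Cdh5, Kdr and Egfl7, the limit for endothelial-marker wells, was found in 4, 3 and 1 fibroblast-like wells, and all 152 genes that are described next stayed past 2-fold without those wells. More wells held at least 1000 CPM of the longer lists, 23, 24 and 7 for the 10 endothelial and 16, 22 and 3 for the 9 pericyte markers. The 152 genes were not recounted without the wells of the longer lists.

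**Figure D1:**
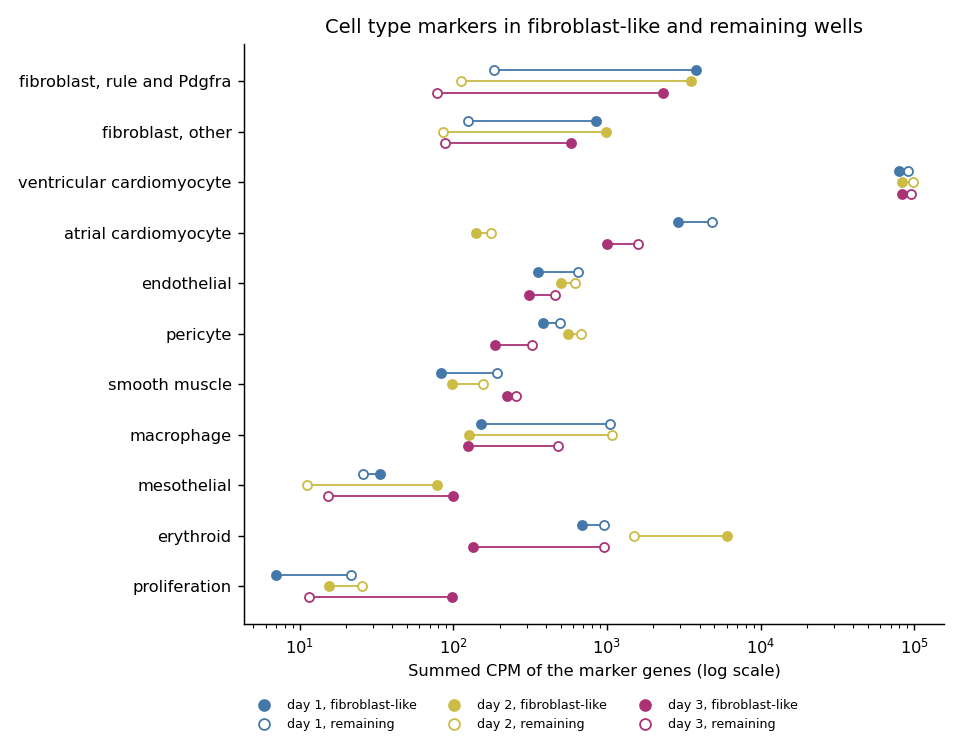
Summed CPM of cell type marker genes (x axis, log scale) for 11 marker lists, with filled points for fibroblast-like wells, open points for the remaining wells and colours for the 3 libraries. The log2 ratio of filled to open points is between 2.74 and 4.97 for the fibroblast lists, while the ventricular cardiomyocyte sums lie between 79454 and 97493 CPM in both.

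The genes that set the rule are given as a description. Dcn stood at 3459.6, 2846 and 1664 CPM on days 1, 2 and 3, against 165, 81.2 and 51.1 CPM in remaining wells. Lum stood at 183, 248 and 182 CPM against 6.95, 6.02 and 3.71 CPM. Dcn was thus lower on each later day in both kinds of well, while Lum in fibroblast-like wells was highest on day 2. The collagens were higher on the later days. Col1a1 was at 17.1, 44.0 and 62.3 CPM and Col3a1 at 101, 352 and 369 CPM over the 3 days, against 2.47, 4.27 and 2.58 CPM and 8.25, 17.9 and 17.1 CPM in remaining wells. In the day 2 library a single well gave 41.5% of the Col3a1 counts. Pdgfra, the receptor that is commonly used to mark cardiac fibroblasts and was not part of the rule, was at 49.2, 43.7 and 30.8 CPM and had a count in 46.9, 45.8 and 52.4% of fibroblast-like wells, against 7.34, 5.50 and 7.14% of remaining wells. Thinned to 30000 counts per well, those shares were 38.1, 34.4 and 23.8% and 2.51, 2.28 and 2.90%.

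Across the transcriptome, 568 of 6630 genes with a mean of at least 10 CPM were at least 2-fold higher in fibroblast-like wells on day 1 (8.57%), 664 of 6865 on day 2 (9.67%) and 710 of 6248 on day 3 (11.4%). At least 2-fold lower were 252 genes on day 1 (3.80%), 321 on day 2 (4.68%) and 233 on day 3 (3.73%). In each of the 3 libraries 152 of 5595 genes were at least 2-fold higher (2.72%), and 18 were at least 2-fold lower (0.322%). Without genes that took over 25% of their counts from 1 well, 97 were higher. The wells were chosen on this contrast, so these counts describe the group and were not tested. Day 1 shared 238 of its higher genes with day 2, which is 41.9% of the day 1 genes and 35.8% of the day 2 genes. Days 1 and 3 shared 206 higher genes (36.3% and 29.0%), and days 2 and 3 shared 242 (36.4% and 34.1%). Lower genes were shared less, with 54 for days 1 and 2, 38 for days 1 and 3 and 47 for days 2 and 3, at 14.6 to 21.4%. The median log2 ratio over all measured genes was 0.03, 0.02 and 0.08. Each of the 24 genes that the naming rule took for the largest ratio that held in all 3 libraries was at least 5-fold higher on each day, as the plot of the named genes shows.

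Mfap5, a glycoprotein of elastic microfibrils, was at 633, 1283 and 1400.3 CPM in fibroblast-like wells on days 1, 2 and 3 and at 27.5, 26.6 and 40.0 CPM in remaining wells. The log2 ratio was 4.53 (95% interval 4.49 to 4.56), 5.59 (95% interval 5.55 to 5.63) and 5.13 (95% interval 5.10 to 5.16). Fibroblast-like wells with a Mfap5 count made up 82.7, 88.5 and 84.5% of the group, against 42.1, 51.3 and 57.9% of remaining wells, and 75, 81.7 and 72.6% against 19.4, 19.3 and 21.7% after thinning. Wells differed widely in Mfap5, since 37, 46 and 31 wells held at least 1000 CPM while others held none.

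Of the elastic-fibre and microfibril genes, 5 of the 8 that were measured in every library passed 2-fold each time (Fbn1, Mfap5, Fbln1, Fbln2 and Ltbp4). Of all 5595 genes measured in every library, 2.72% did. Fbln2, which encodes the basement-membrane and elastic-fibre protein fibulin-2, was at 103, 148 and 173 CPM against 18.8, 16.6 and 7.52 CPM. Loxl1, an enzyme that cross-links elastin, was at 71.8, 109 and 75.2 CPM against 4.82, 10.5 and 5.02 CPM. The ratio to the remaining wells was larger on day 3 than on day 1 for Fbln2 and alike on those days for Loxl1.

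Of 10 measured proteoglycan genes 8 were past 2-fold in every library (Dcn, Lum, Bgn, Ogn, Prelp, Aspn, Vcan and Prg4). Dcn and Lum belong to the rule, and without them the count is 6 of 8, where 2.72% of all measured genes were past 2-fold. Hspg2 and Ecm2 were not. Bgn, which encodes biglycan, was at 99.5, 113 and 118 CPM against 10.8, 9.46 and 9.93 CPM and had a count in 78.4, 77.9 and 81.0% of the wells. Prelp, a leucine-rich repeat protein that anchors basement membranes to the underlying matrix, was at 161, 101 and 53.0 CPM against 14.1, 9.47 and 3.08 CPM; its exons overlap those of Gm15851 on the opposite strand, and the strand setting of the counts is not given in the sources used here.

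All 3 fibrillar collagen genes measured in every library were past 2-fold (Col1a2, Col5a2 and the rule gene Col3a1), as were Col6a1, Col6a2 and Col8a1 among 5 other collagens. The basement-membrane chains Col4a1 and Col4a2 were not, and of all measured genes 2.72% were. Col1a2 was at 69.9, 171 and 184 CPM in fibroblast-like wells and 12.5, 13.6 and 9.85 CPM in remaining wells. Of the matricellular genes Postn, Thbs1 and Smoc2 passed in each library out of 7, with Smoc2 at 108, 75.3 and 56.8 CPM against 7.66, 8.19 and 6.32 CPM. Dpt, which encodes the collagen-binding protein dermatopontin, was at 144, 152 and 74.2 CPM against 10.2, 10.1 and 4.98 CPM. Mgp, an inhibitor of matrix calcification, was at 1207, 1297 and 614 CPM against 117, 93.9 and 63.2 CPM and was found in 100, 99.2 and 97.6% of the wells. Mgp counts also occurred in 87.6, 89.4 and 79.4% of remaining wells, at a much lower level.

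Secreted enzymes and inhibitors formed the next group, with 9 of 15 measured genes past 2-fold in every library (Mmp2, Mmp3, Mmp23, Timp1, Adamts5, Serpine2, Serping1, Serpinf1 and Htra3). Serping1, the C1 inhibitor that restrains the complement cascade, was at 1064, 627 and 352 CPM against 70.8, 38.1 and 25.4 CPM. Serpinf1, which encodes pigment epithelium-derived factor, was at 72.9, 71.0 and 74.1 CPM against 4.57, 3.50 and 3.02 CPM. Serpina3n, an inhibitor of serine proteases, was at 86.5, 99.5 and 69.5 CPM against 4.24, 13.8 and 8.26 CPM, and only 37.0, 38.9 and 44.0% of the wells had a count of it. Of 7 complement genes measured, 5 were past 2-fold in every library, among them C3, C1s1, Serping1 and C7. For both lists, the share of all measured genes was 2.72%. C3, the central component of that cascade, was at 219, 382 and 194 CPM against 36.8, 19.4 and 13.9 CPM.

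Gsn encodes gelsolin, which severs actin filaments, and stood at 3751, 3073 and 1555 CPM in fibroblast-like wells against 225, 165 and 109 CPM in remaining wells, with log2 ratios of 4.06, 4.22 and 3.84. Almost all fibroblast-like wells had a count (99.4, 99.2 and 97.6%), as did most remaining wells (97.0, 92.8 and 87.1%). After thinning to 30000 counts the shares were 98.1, 97.7 and 95.2% and 77.6, 66.7 and 55.8%. Macrophage-marker wells (at least 1000 CPM of the 4 macrophage genes) held 135, 202 and 74.1 CPM and endothelial-marker wells 159, 149 and 84.2 CPM, so Gsn was at least 10-fold lower in both classes on each day. For such levels both classes took only wells under 1000 CPM of the 4 rule genes, and endothelial-marker wells also stayed under the macrophage limit. Over fibroblast-like wells Gsn went with the rule sum at Spearman correlations of 0.42, 0.36 and 0.27. Low levels in these classes are therefore not independent of the rule. Dpep1, a membrane-bound dipeptidase, was at 318, 188 and 118 CPM against 13.8, 11.4 and 3.17 CPM, and at 2.48, 3.26 and 0.879 CPM in macrophage-marker wells.

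Among signalling and inflammatory genes, Fstl1, a secreted follistatin-like glycoprotein, was at 384, 444 and 534 CPM against 29.6, 31.6 and 35.0 CPM and was the only 1 of 4 measured genes of the TGF-beta and BMP list to pass in each library. Cxcl1, a chemokine that attracts neutrophils, was at 290.3, 348 and 139.6 CPM against 14.6, 10.5 and 8.85 CPM. Of 10 chemokine and cytokine genes measured, Cxcl1, Cxcl14, Ccl7 and Il33 passed in each library, where 2.72% of all measured genes did. Macrophage-marker wells held 98.8, 33.4 and 25.4 CPM of Cxcl1, which is also above the remaining wells as a whole. Axl, a receptor tyrosine kinase, was at 147, 121 and 139.5 CPM against 9.50, 17.0 and 8.63 CPM. Among 7 genes of the IGF axis Igf1, Igfbp4, Igfbp6 and Igfbp7 passed, with Igfbp4 at 71.1, 119.6 and 62.6 CPM against 12.0, 12.9 and 6.77 CPM.

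Genes of retinoid, lipid and detoxification metabolism were past 2-fold in 9 of 18 measured cases (among them Gsta3, Aldh1a1, Rbp4, Rarres2, Abca8a, Cyp1b1, Fmo2 and Sod3). The share of all measured genes past 2-fold in every library was 2.72%. Rarres2, which encodes the adipokine precursor prochemerin, was at 167, 161 and 71.4 CPM against 15.1, 12.9 and 4.77 CPM, with exons that overlap Lrrc61 on the opposite strand. Rarres2 was thus lowest on day 3 in both kinds of well.

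The remaining named genes were Crispld2, S100a6, Nupr1, Rcn3 and Anxa1. Crispld2, a secreted glycosaminoglycan-binding protein, was at 182, 169 and 92.7 CPM against 14.6, 8.10 and 9.29 CPM. S100a6 and Anxa1, calcium-binding proteins, had day 1 levels of 195 and 69.3 CPM against 22.9 and 11.1 CPM. Nupr1, a stress-induced nuclear protein, was at 606, 487 and 189.5 CPM, and macrophage-marker wells held 555, 362 and 141 CPM of it, close to the fibroblast-like wells. Rcn3, a calcium-binding protein of the endoplasmic reticulum, was at 104, 219 and 227 CPM against 16.0, 16.4 and 20.5 CPM. Its exons overlap those of Gm45669 on the opposite strand.

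Several lists gave no gene past 2-fold in every library. None of 8 measured fibroblast transcription factor genes passed (among them Tbx20, Gata6, Prrx1, Ebf1 and Zeb1), none of 13 heat shock genes and none of 6 INO80 complex genes, where 2.72% of all measured genes did. For lists this short a count of none is near that share, so it says little about them. With a mean of at least 1 CPM in place of 10, 5 of 22 transcription factor genes passed, Tcf21 among them. At that mean 1 of 12 INO80 complex genes and none of 14 heat shock genes passed. Tcf21, the transcription factor gene that marks the epicardial fibroblast lineage, was under the 10 CPM mean in each comparison with the remaining wells. It stood at 16.6, 15.5 and 6.24 CPM in fibroblast-like wells and 0.594, 0.259 and 0.385 CPM in remaining wells, and had a count in 31.5, 32.8 and 19.0% against 2.07, 3.02 and 1.09% of wells. Of the immediate early genes 3 of 18 passed (Egr1, Nr4a1 and Cebpd), of the interferon-response genes 1 of 8 (Ifitm3), and of the receptors 3 of 16 (Pdgfra, Tgfbr2 and Cd9). Ifitm3, a membrane protein of antiviral defence, was at 1647, 1954 and 1389.8 CPM against 586, 492 and 389 CPM.

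The 18 genes lower in every library included Lyz2, C1qb and C1qc, which the rule itself limited, and other genes known from macrophages such as Cd68, Csf1r and Ctss. The 10 genes named as lowest were Wfdc17, Lyz2, C1qb, Ccl6, Fcer1g, H2-Ab1, Pf4, Gpihbp1, Depp1 and Rgcc, of which Depp1 and Rgcc did not reach 2-fold in every library. Wfdc17 was at 17.3, 43.7 and 16.2 CPM against 332, 666 and 185 CPM. When macrophage-marker and endothelial-marker wells were taken out of the remaining wells, the count of genes lower in every library was 2, and Lyz2, C1qb, Ccl6, Fcer1g and Pf4 were higher in fibroblast-like wells in at least 1 library. Gpihbp1, which carries lipoprotein lipase across the capillary endothelium, was at 236, 170.1 and 186 CPM against 615, 369 and 384 CPM and was at 2092, 655 and 1123 CPM in endothelial-marker wells.

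Between days, more genes were past 2-fold in fibroblast-like wells than in the remaining wells, whose sums rest on more wells. Of 6861 genes, 860 were past 2-fold upward from day 1 to day 2 (12.5%) and 540 past it downward (7.87%), against 3.04% and 1.39% in remaining wells. For day 3 against day 1 the counts were 707 upward (10.7%) and 983 downward (14.8%) of 6627, against 3.83% and 5.90%. Without genes that took over 25% of their counts from 1 well, the counts were 384 and 275 for day 2 and 336 and 621 for day 3. With the total over all mouse genes instead, mitochondrial ones included, the day 3 split was 1185 higher and 398 lower. The median log2 ratio over all measured genes was 0.11 for day 2 and -0.05 for day 3. Atrial cardiomyocyte markers (5 genes) summed to 2879, 140 and 994 CPM in fibroblast-like wells on days 1, 2 and 3 and to 4849, 177 and 1596 CPM in remaining wells, so the libraries also differed in atrial RNA, whose part in the day differences was not tested. Day, library and, on day 3, the mixed genotype cannot be told apart. With 5 CPM added to each level, genes named for a day differ by at least 1 log2 unit more in fibroblast-like than in remaining wells, so their direction in that comparison was fixed by the choice.

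Timp1, which encodes a tissue inhibitor of metalloproteinases, headed the genes named as higher on day 3 than on day 1. It was at 29.0, 159 and 1110.3 CPM in fibroblast-like wells and 8.63, 21.3 and 55.2 CPM in remaining wells. A count was found in 9.26, 35.9 and 76.2% of fibroblast-like wells and 5.55, 23.0 and 60.4% of remaining wells (6.25, 22.1 and 50% and 2.70, 9.22 and 25.4% after thinning), and 1, 7 and 19 fibroblast-like wells held at least 1000 CPM. The log2 ratio of day 3 over day 1 was 5.26 (95% interval 5.18 to 5.35) in fibroblast-like wells and 2.68 in remaining wells. On day 1 a single well gave 33.3% of the Timp1 counts, so that level rests on few wells. Aldh1a2, which makes retinoic acid from retinal, was at 2.26, 16.5 and 96.2 CPM against 0.307, 0.488 and 1.55 CPM, and was found in 3.09, 13.7 and 45.2% of fibroblast-like wells. Its log2 ratio of day 3 over day 1 was 5.42 (95% interval 5.11 to 5.73), against 2.33 in remaining wells. The mesothelial markers given above were higher on the later days too, and their part in the Aldh1a2 level was not tested.

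**Figure D2:**
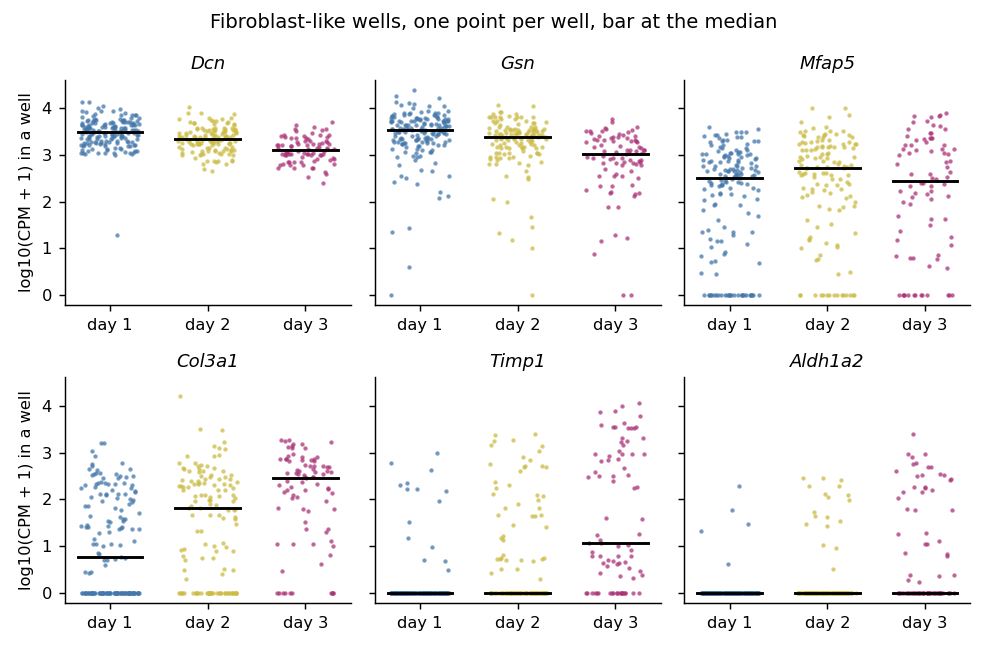
Level of 6 genes in each fibroblast-like well as log10(CPM + 1) (y axis) by library (x axis), with 1 point per well and a bar at the median. Dcn and Gsn medians are lower on day 3, Col3a1 is present in a larger share of wells on each later day, and Timp1 and Aldh1a2 are at 0 in most wells of day 1, while 19 wells of day 3 hold at least 1000 CPM of Timp1.

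All 5 measured fibrillar collagen genes (Col1a1, Col1a2, Col3a1, Col5a1 and Col5a2) were at least 2-fold higher on day 3 than on day 1 in fibroblast-like wells, with a median log2 ratio of 1.86 against 0.06 for the same genes in remaining wells. On day 2, 4 of 5 were past 2-fold (Col5a2 was not). The shares of all measured genes past 2-fold upward were 10.7% on day 3 and 12.5% on day 2. Col1a1 and Col3a1 are part of the sum that chose the wells, in which Dcn was lower on day 3, so these are not independent of the rule. Col1a2, Col5a1 and Col5a2 were not used by the rule but need not be independent of it. Over the 84 fibroblast-like wells of day 3, Col1a2 went with Col3a1 at a Spearman correlation of 0.65. The part of the choice of wells in the collagen ratios was not tested. Col1a2 gave a log2 ratio of 1.40 (95% interval 1.33 to 1.46) for day 3 over day 1, and -0.34 in remaining wells. Col5a2, which encodes a chain of the fibril-nucleating type V collagen, was at 32.2, 48.8 and 104 CPM against 5.48, 6.40 and 3.75 CPM. The shares of fibroblast-like wells with a Col1a1 count were 39.5, 60.3 and 69.0%, and 25.6, 41.2 and 51.2% after thinning.

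Of 14 measured genes known from activated fibroblasts and myofibroblasts, 9 were at least 2-fold higher on day 3 than on day 1 (Postn, Acta2, Ddah1, Fn1, Tnc, Lox, Timp1, Col8a1 and Lgals1), 1 was lower (Cilp), and the median log2 ratio was 1.52 against 0.27 in remaining wells. On day 2 the count was 3 of 12 (Fn1, Lox and Timp1), again with Cilp lower. Of all measured genes, 10.7% were at least 2-fold higher on day 3 and 12.5% on day 2. These calls use summed counts, and those of Fn1 and Cilp did not hold by the mean over wells. That mean gave log2 ratios of 0.51 on day 2 and 0.84 on day 3 for Fn1, and -0.98 and -0.44 for Cilp. Acta2, Ddah1, Lox, Col8a1 and Lgals1 stayed past 2-fold on day 3 by that mean. Postn, the matricellular protein periostin, was at 26.4, 51.2 and 194 CPM against 4.18, 8.23 and 12.0 CPM. Of its day 3 counts, 29.6% lay in 1 well. Lox, which cross-links collagen, was at 10.7, 34.3 and 53.7 CPM against 0.928, 2.10 and 1.08 CPM, and its exons overlap those of a gene on the opposite strand. Acta2, the smooth muscle actin of myofibroblasts and vessel walls, was at 36.2, 40.7 and 158 CPM but at 76.9, 80.6 and 163 CPM in remaining wells, so it was higher on day 3 in both kinds of well and not above the remaining wells on any day. Mfap5 was also 2-fold higher on both later days, with log2 ratios of 1.02 and 1.14 against -0.05 and 0.54 in remaining wells.

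Other secreted and matrix genes were lower on day 3. Gsn gave a log2 ratio of -1.27 (95% interval -1.29 to -1.26) for day 3 over day 1 and Serping1 -1.59 (95% interval -1.62 to -1.56), with -1.05 and -1.48 in remaining wells. Dcn gave -1.06, and -1.69 in remaining wells, so all 3 genes were lower on day 3 in both kinds of well. Over all 6627 measured genes, 14.8% were at least 2-fold lower on day 3 and 10.7% higher. With the total over all mouse genes, 398 genes were lower and 1185 higher, in place of 983 and 707. Of 19 protease and inhibitor genes, 12 were at least 2-fold lower on day 3 (among them Mmp2, Mmp14, Timp2, Timp3, Adamts5 and Htra3) and 2 were higher, Timp1 among them, with a median of -1.15 against -0.47 in remaining wells. Of 20 immediate early genes 13 were lower and none higher, with a median of -1.23 against -0.76. Of 9 complement genes 4 were lower (among them C4b, C1s1 and Serping1) and none higher.

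The named genes lower on day 3 than on day 1 were Apod, Pgf, Ifi205, Spata33, Atpaf1, Cep350, Afap1, Gfpt2, Rnase4 and Fam168a. Apod, a lipid-binding apolipoprotein, was at 175, 77.6 and 13.6 CPM in fibroblast-like wells and 22.2, 23.2 and 11.2 CPM in remaining wells. Gfpt2, an enzyme that feeds the hexosamine pathway, was at 95.2, 121 and 16.1 CPM against 3.78, 3.69 and 2.41 CPM. Both were well above the remaining wells on days 1 and 2, and Apod was near their level on day 3. Pgf, which encodes placental growth factor, was at 56.8, 54.0 and 2.74 CPM against 5.43, 3.08 and 12.9 CPM. Ifi205, an interferon-inducible gene, was at 169, 189.7 and 26.7 CPM against 5.45, 3.48 and 0.787 CPM, and its log2 ratio of day 3 over day 1 was -2.66 in fibroblast-like and -2.79 in remaining wells. Rnase4 was at 235, 163 and 45.7 CPM and shares an exon with Ang on the same strand, so its counts could belong to either gene.

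The other named genes higher on day 3 were Lig1, Mylk4, Smim1, Ppp1r3a, Rbm20, Abhd5 and Limch1. Lig1, the DNA ligase of replication, was at 3.25, 9.10 and 60.1 CPM against 6.90, 3.90 and 5.64 CPM, with exons that overlap Zswim9 on the opposite strand. Mylk4, a myosin light chain kinase family gene, was at 20.9, 34.2 and 149 CPM against 34.3, 33.7 and 97.8 CPM, Rbm20, a splicing factor of muscle genes, at 10.01, 53.2 and 55.9 CPM against 31.8, 46.6 and 61.5 CPM, and Limch1 at 38.6, 73.4 and 170.1 CPM against 68.1, 78.1 and 139 CPM. These 3 were lower in fibroblast-like than in remaining wells on day 1 and under 2-fold from them on day 3. Smim1 was at 6.84, 22.7 and 64.9 CPM against 13.0, 10.2 and 2.51 CPM, with exons that overlap Lrrc47, and 1 well held 63.8% of its counts on day 1.

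Chemokine genes were among those higher on day 2. Ccl2, which attracts monocytes, was at 27.9, 262 and 150.4 CPM on days 1, 2 and 3 against 62.2, 74.8 and 27.0 CPM in remaining wells. Cxcl12, a chemokine that retains progenitor and immune cells, was at 38.3, 159 and 33.2 CPM against 56.1, 78.7 and 49.1 CPM. Both were thus below the remaining wells on day 1 and above them on day 2, and Cxcl12 was below again on day 3. Of 12 chemokine and cytokine genes 4 were at least 2-fold higher on day 2 than on day 1 (Cxcl12, Cxcl14, Ccl2 and Ccl7) and none lower, where 12.5% of all measured genes were higher. The list median was 0.70 in fibroblast-like and 0.02 in remaining wells, and Cxcl14 gave 2.33 and 3.09, with 68.0% of its day 2 counts from 1 well. The other genes named as higher on day 2 were Timp1, March7, Med24, Rbm20, Khdrbs1, Rabepk, Arhgef10l and Nif3l1, and those lower included Plet1os, Haus1, Wnk2, Nsd3, Tbc1d4, Rab11fip5, Coa7, Agtrap and Ptcd2.

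**Figure D3:**
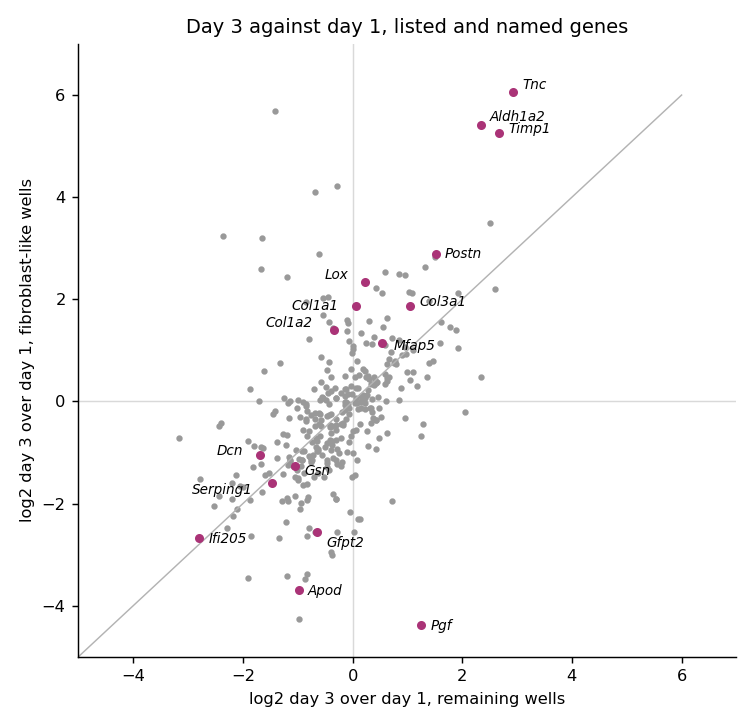
Log2 ratio of day 3 over day 1 in fibroblast-like wells (y axis) against the same ratio in remaining wells (x axis) for the listed and named genes with a mean of at least 10 CPM, with a line of equality. Timp1, Aldh1a2, Tnc and the labelled collagens lie above the line, Apod, Pgf and Gfpt2 lie below it, and Dcn, Gsn, Serping1 and Ifi205 lie near it.

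The upstream sequences of 2 genes higher and 2 lower on day 3 are shown as examples from the genes named for day 3, chosen after their values were seen. Each is the 250 bases before the RefSeq start on GRCm38.p6, 5′ to 3′ in the direction of the gene, with matches to 5 short motifs in capitals.
Timp1, chrX:20869916-20870165, plus strand: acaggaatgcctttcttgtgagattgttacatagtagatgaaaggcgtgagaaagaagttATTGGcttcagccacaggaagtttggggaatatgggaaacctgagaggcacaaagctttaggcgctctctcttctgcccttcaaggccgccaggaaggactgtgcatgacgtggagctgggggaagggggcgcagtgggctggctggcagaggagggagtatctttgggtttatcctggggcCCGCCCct
Aldh1a2, chr9:71215539-71215788, plus strand: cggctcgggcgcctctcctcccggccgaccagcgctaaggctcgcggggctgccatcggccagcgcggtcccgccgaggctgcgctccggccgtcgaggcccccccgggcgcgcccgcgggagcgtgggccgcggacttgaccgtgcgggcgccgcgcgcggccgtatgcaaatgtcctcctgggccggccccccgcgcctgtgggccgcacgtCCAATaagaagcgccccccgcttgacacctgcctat
Apod, chr16:31314809-31315058, minus strand: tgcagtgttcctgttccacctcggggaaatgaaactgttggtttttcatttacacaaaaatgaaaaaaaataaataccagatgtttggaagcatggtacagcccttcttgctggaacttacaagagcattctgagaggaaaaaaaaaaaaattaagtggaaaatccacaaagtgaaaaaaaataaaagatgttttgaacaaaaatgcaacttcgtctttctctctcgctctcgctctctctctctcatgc
Gfpt2, chr11:49793905-49794154, plus strand: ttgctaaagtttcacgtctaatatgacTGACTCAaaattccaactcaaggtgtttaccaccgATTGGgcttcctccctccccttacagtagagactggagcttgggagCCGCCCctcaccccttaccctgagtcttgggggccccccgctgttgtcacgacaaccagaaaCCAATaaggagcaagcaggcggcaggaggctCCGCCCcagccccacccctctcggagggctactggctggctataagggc
All motifs were searched on both strands, and no match overlaps another in the 4 windows. The TATA box was searched as TATAAA, which 12.4% of 32851 promoter windows of the same length hold. The CCAAT box was searched by its own letters and is held by 33.8%. The GC box was searched as GGGCGG and is held by 32.7%. The AP-1 site was searched as TGANTCA, held by 6.75%. A similar site was searched as TGAGTAA, held by 2.25%. In the Timp1 window a CCAAT box lay 190 bases and a GC box 8 bases before the start. Aldh1a2 had a single CCAAT box 36 bases before it, Apod had none of the motifs, and Gfpt2 had 2 CCAAT boxes, 2 GC boxes and 1 AP-1 match, 223 bases upstream. A match is a description of letters. In the GENCODE M21 annotation of GRCm38, Timp1 lies on chromosome X from 20870166 to 20874735, Aldh1a2 on chromosome 9 from 71215789 to 71296243, Apod on chromosome 16 from 31296192 to 31314808 and Gfpt2 on chromosome 11 from 49794178 to 49838613, all protein-coding.

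Within the day 3 library the fibroblast-like wells were not uniform. By Ino80, the ATPase gene of the INO80 chromatin remodelling complex, 42 wells held under 100 CPM, 7 held 100 to 1000 CPM and 35 held at least 1000 CPM. On day 1 only 1 of 162 and on day 2 none of 131 held under 100 CPM. The remaining wells of day 3 divided in the same way, with 489, 58 and 461 wells, and the fibroblast-like share was 7.91% in the low and 7.06% in the high range. These ranges were drawn after the values were seen and are not genotypes. As Spearman correlations over the 84 wells, which share a library and a CPM total, Ino80 went with Timp1 at 0.65, with Col1a2 at 0.54, with Col3a1 at 0.50, with Gsn at -0.37 and with the ventricular marker sum at -0.73. On days 1 and 2 the correlation of Ino80 with Timp1 was -0.06 and -0.28.

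**Figure D4:**
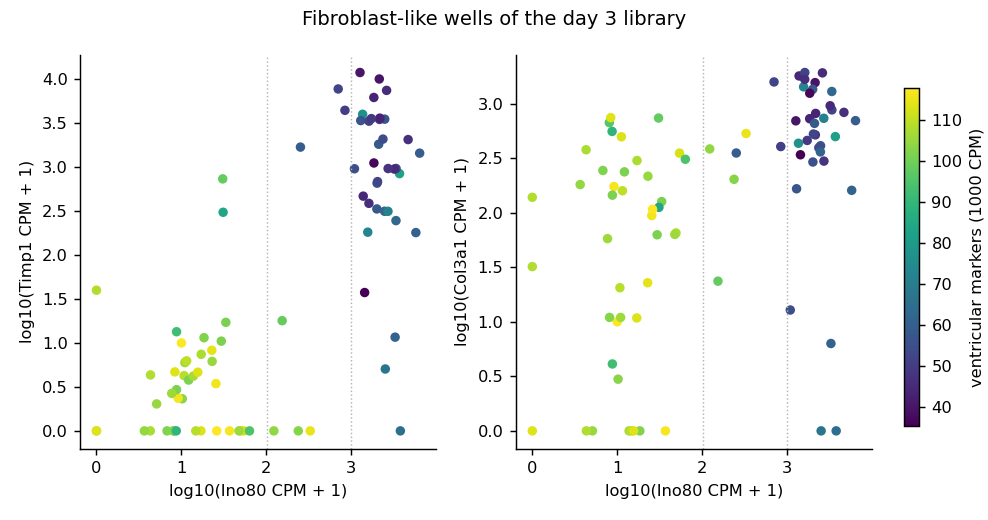
Timp1 (left) and Col3a1 (right) against Ino80 in the 84 fibroblast-like wells of day 3, as log10(CPM + 1), coloured by the summed CPM of 10 ventricular cardiomyocyte markers, with dotted lines at 100 and 1000 CPM of Ino80. Wells at the right have 16 of the 19 Timp1 values of at least 1000 CPM and lower ventricular sums.

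Several activation genes were much higher in wells with at least 1000 CPM of Ino80. Timp1 was at 2386 CPM in those 35 wells and 41.6 CPM in the 42 with under 100 CPM, where 1 well gave 77.3% of the counts. In remaining wells the same ranges held 129.6 and 5.97 CPM. Postn was at 457 against 12.7 CPM, Tnc at 68.0 against 0.236 CPM, Fn1 at 88.0 against 2.12 CPM and Aldh1a2 at 202 against 13.0 CPM. Of 17 measured activation and myofibroblast genes, 16 were at least 2-fold higher in the Ino80-high range and none lower, where 36.2% of 6401 genes were higher and 19.2% lower. Their median log2 ratio was 5.37 against 2.35 in remaining wells, while the median over all measured genes was 0.45 and 0.31.

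Of the fibrillar collagens 5 of 5 were at least 2-fold higher in the Ino80-high range, where 36.2% of 6401 genes were. Their median log2 ratio was 3.24, and the same genes gave 1.42 in remaining wells. Col1a1 was at 132 against 14.0 CPM, Col3a1 at 659 against 151 CPM and Col5a2 at 226 against 11.8 CPM. Mfap5 was at 2799 against 381 CPM, but here the log2 ratio of 2.88 did not exceed the 3.36 of the remaining wells. Mki67, a marker of cycling cells, had a count in 28.6% of Ino80-high and 2.38% of Ino80-low wells, at 70.3 against 0.0590 CPM. Ccl2 was at 341 against 1.12 CPM and 9 of 11 chemokine and cytokine genes were at least 2-fold higher, with a list median of 2.00 in fibroblast-like and 2.12 in remaining wells.

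Other fibroblast genes were near level or lower in the Ino80-high range. Dcn was at 1436 CPM in the Ino80-high and 1755 CPM in the Ino80-low wells, Gsn at 1055 against 1872 CPM, and Mgp at 642 against 609 CPM. Abca8a, a lipid transporter, was at 30.5 against 144 CPM with 3.78 and 3.57 CPM in remaining wells. Htra3, a secreted serine protease, was at 7.51 against 59.9 CPM, Adamts5, an aggrecanase, at 15.1 against 60.7 CPM, and Pdgfra at 16.5 against 43.1 CPM. Mylk4 was at 1.82 against 265 CPM, so its day 3 level came from the Ino80-low wells. Ventricular marker sums differed with these ranges, as their median was 53966 CPM in Ino80-high and 107047 CPM in Ino80-low fibroblast-like wells. Their part in the differences was not tested.

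Set against the earlier libraries, the Ino80-high wells of day 3 were higher again in 3 genes, with Timp1 at 29.0, 159 and 2386 CPM, Col1a1 at 17.1, 44.0 and 132 CPM and Postn at 26.4, 51.2 and 457 CPM. The Ino80-low wells had 41.6, 14.0 and 12.7 CPM, near or below the day 1 levels of fibroblast-like wells except for Timp1. That Timp1 level came mostly from 1 well, as given above, and 40 of the 42 Ino80-low wells held under 100 CPM of it. Lox was at 111 and 1.53 CPM in the high and low range, on either side of its day 1 level of 10.7 CPM. Gfpt2 and Apod did not divide by Ino80, with 15.6 and 16.6 CPM of Gfpt2 and 14.0 and 14.9 CPM of Apod.

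Ino80 itself stood at 2299.8, 4242 and 1019 CPM on days 1, 2 and 3, against 2608, 4754 and 1188 CPM in remaining wells, with log2 ratios of -0.18, -0.16 and -0.22, close to those of the ventricular markers. The part of cardiomyocyte RNA in these Ino80 counts was not tested. Ruvbl1, an AAA ATPase of the complex, was at 17.2, 27.9 and 30.4 CPM and had a count in 19.8, 32.8 and 38.1% of fibroblast-like wells.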

How the data were processed

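RNA of single iCELL8 wells was measured in 3 libraries, 1 for each of days 1, 2 and 3. The deposited values are raw read counts per gene and well. The submitters' processing notes name cutadapt, STAR, featureCounts and mm10, with no versions. Strand setting and annotation: not given in the sources used here.

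Wells with at least 1000 counts and 300 genes were kept, which left out 18. Doublets were not called. Counts were summed over the wells of a class and expressed per 1000000 nuclear-encoded mouse counts (CPM), and genes with a mean of at least 10 CPM over both classes were compared. With 1 library per day no test was made. Intervals are exact 95% limits from the counts, and they cover counting error only. Those of log2 ratios take reads as independent and can be too narrow. Shares of wells with a count were repeated after thinning each well to 30000 counts. The members and lists were chosen with earlier results of these data known.

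Genes were named by rule. Higher genes were the 24 with the highest smallest log2 ratio (5 CPM added) over the libraries, among genes outside the rule with at least 50 CPM in the fibroblast-like wells, a count in at least 25% of them and no more than 25% of counts from 1 well. Lower genes were the 10 with the lowest largest ratio at 50 CPM or more in remaining wells, with the same limit on 1 well. For each day comparison 10 genes in each direction were taken by log2 ratio (5 CPM added), with a mean of at least 20 CPM, a count in at least 10% of the wells of the higher library, at most 25% of its counts from 1 well, a mean over wells that pointed the same way and a log2 ratio at least 1 beyond that of the remaining wells. A few genes of the lists and the rule are not reported here. Symbols of ribosomal proteins, mitochondrial genes, pseudogenes and Rik clones were not named. Of 72 named genes, 14 share exon sequence with another gene in GENCODE M21, 3 on the same strand. Exons of the rule gene Col3a1 and of Pdgfra also overlap those of other genes. Promoters came from RefSeq (GRCm38.p6), which matched 17 of 24 higher genes and 17 of 20 day 3 genes. Python 3.11.15, numpy 2.4.6, pandas 2.3.3, scipy 1.17.1 and matplotlib 3.10.9 were used. Alternatives changed the rule, the total, the size factors, the filter on low values and the wells or libraries included.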

Additional observations from a re-analysis of the deposited data

Results flagged for a closer look

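Several genes lay on opposite sides of the remaining wells in different libraries, with at least 2-fold each way, and these differences between libraries were not tested. Ccl2 had a log2 ratio of fibroblast-like over remaining wells of -1.16 on day 1, 1.81 on day 2 and 2.48 on day 3. Nif3l1 was at -1.26, 1.27 and 1.23 over the 3 days, and its exons overlap those of Orc2 and Ppil3. Afap1, an actin-binding protein, was at 1.07 on day 1 and -1.57 on day 3.

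The globin genes differed in the same way, and the day 2 ratios rest on a few wells. Over wells, the median sum of the 5 red blood cell markers on day 2 was 189 CPM in fibroblast-like and 217 CPM in remaining wells, and the highest fibroblast-like well held 125535 CPM. Hba-a1 was at 1.93 on day 2 and -2.95 on day 3, Hba-a2 at 2.19 and -2.55, and Hbb-bs at 1.78 and -2.91. Hbb-bt was at -3.21 on day 1, 2.39 on day 2 and -3.99 on day 3.

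Sequences added to the mouse genes in the count tables also had counts. EGFP had 211 counts in 3 fibroblast-like wells on day 1, of which 202 lay in a single well, 29 counts in 8 wells on day 2 and 7 counts in 3 wells on day 3. The remaining wells held 533, 598 and 532 EGFP counts in 56, 53 and 48 wells. The 3xFlag sequence had 7 counts in fibroblast-like wells on day 1 and 12 in remaining wells.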

How the results depend on the processing

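No paired analysis was possible because each day has 1 library and the labels give no replicate numbers. With the limit at 500 CPM the shares of fibroblast-like wells were 19.9%, 16.6% and 9.98% on days 1, 2 and 3, and at 2000 CPM 10.5%, 8.69% and 3.94%. With the total over all mouse genes they were 9.92% on day 2 and 5.86% on day 3. Against 152 genes higher and 18 lower in every library, a mean of at least 50 CPM gave 36 and 7, and at least 1 CPM gave 391 and 178. The lower count was 10 with no macrophage limit, 11 with the total over all mouse genes and 2 without endothelial- and macrophage-marker wells. Leaving out each library in turn gave 206 to 242 higher and 38 to 54 lower genes. Day 2 against day 1 gave 128 higher and 54 lower genes at 50 CPM, 2348 and 2168 at 1 CPM, and 303 lower with the total over all mouse genes. Day 3 against day 1 gave 130 and 143 at 50 CPM, 2264 and 2938 at 1 CPM, and 1185 and 398 with the total over all mouse genes. Without genes that took over 25% of their counts from 1 well, chosen after seeing the data, 97 genes were higher in every library, 384 higher and 275 lower on day 2, and 336 and 621 on day 3. Restricting day 3 to fibroblast-like wells with at least 1000 CPM of Ino80, also chosen after seeing the data, gave 1582 higher genes and Mylk4 at -3.52. Restricting it to under 100 CPM gave 1584 lower genes, Lig1 at -1.61 and Lox at -2.80 against day 1. Against all remaining wells of day 3 it gave Serpina3n at -0.20, and list medians of -0.14 for matricellular, -0.35 for chemokine and -0.39 for activation genes. Those remaining wells were not restricted by Ino80, and 461 of them held at least 1000 CPM of it. Within remaining wells, the 3 lists had medians of 1.91, 2.12 and 2.35 for the high over the low Ino80 range. A like-for-like comparison is therefore not given by these values. Without endothelial- and macrophage-marker wells, C1qb was at 0.0801 on day 3, Ccl6 at 0.56 on day 2, Fcer1g at 0.28 and 0.0175 on days 1 and 3, Lyz2 at 0.46 and 0.50 on days 1 and 2, and Pf4 at 0.81, 0.41 and 1.495. The interferon list's day 2 median was -0.14 at 1 CPM. The cause of these differences was not tested.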
